A study of Mus musculus with 69 samples.

Results

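Dorsal skin of FVB mice sampled 72 h after the phorbol ester TPA was set against untreated dorsal skin of the same strain. The arrays were chosen by title: 3 arrays at 72 h and 3 at 0 h, which are 6 of the 69 arrays of the series, read over all 18820 genes whose probe sets carry a single gene symbol. The series followed mouse dorsal skin on Affymetrix arrays through a TPA time course in FVB, in the wild-derived Spret/Ei strain and in their F1 cross. The 72 h mice were FVB/N animals aged to 8 weeks, shaved 2 days ahead and then given TPA in acetone once, per the treatment protocol, although the design text mentions replicate exposures. The 0 h mice had the same strain and age and are labelled untreated. No vehicle array is among the samples, so the part of the acetone and that of TPA cannot be told apart here. Also used were 3 FVB arrays at 48 h, 3 at 168 h, and from F1 skin 2 arrays at 72 h and 4 at 0 h. The labels do not say whether arrays of a group came from separate mice, so the p-values rest on differences among arrays of a group, part or all of which may be technical.

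TPA mimics diacylglycerol and activates protein kinase C in keratinocytes, which brings on inflammation, cell division and thickening of the epidermis. Keratinocytes divide in the basal layer and then differentiate upward, cross-linking small proline-rich and late cornified envelope proteins under the cell membrane before they are shed. Activated keratinocytes also make stress keratins, protease inhibitors, antimicrobial peptides and cytokines of the IL-1 and IL-36 groups, while hair follicles and sebaceous glands run programmes of their own.

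All values are deposited log2 expression values, so a difference of 1 is a doubling in signal. The 6 arrays had medians of 5.52 to 5.68 and interquartile ranges of 3.32 to 3.53. Apart from 2 arrays of narrow range, replicate 1 of SPR at 12 h and replicate 2 of F1 at 72 h, the arrays of the series, these 6 included, had ranges of 3.32 to 3.72, and 72 h replicate 2 was the lowest among them. Loricrin (Lor), a cornified envelope protein that marks epidermis, stood at 12.72, 12.33 and 11.92 in the 72 h arrays and at 12.29, 12.06 and 11.75 in the untreated arrays. Replicate 3 at 72 h was high in muscle and fat genes, and untreated replicates 2 and 3 were high in liver and T cell genes.

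The contrast called 353 genes, 1.88% of those tested, with 177 higher at 72 h (0.94%) and 176 lower (0.935%). A call needed an adjusted p under 0.05 in limma over all 18820 genes and a log2 change of at least 1. Of the called genes, 324 had 3 arrays at 72 h that did not overlap the 3 untreated arrays, against a background of 9.83% of all genes lying wholly higher and 14.4% wholly lower. The counts leaned on single arrays: 88 genes were called without untreated replicate 2, 194 without untreated replicate 3, and 505 without untreated replicate 1. Without 72 h replicate 3, 212 were called (1.13%), 117 higher (0.622%) and 95 lower (0.505%), and 153 of them were among the 353. Without untreated replicates 2 and 3 together, 11 genes were called (0.0584%), 5 higher (0.0266%) and 6 lower (0.0319%), and 9 of them were among the 353. Of the 33 gene lists, the stefin A family then had 2 called members, the IL-1 and IL-36 family 1 and the keratin-associated proteins 1, and the other lists 0. The 7 lists counted after the values were seen, ribosomal protein, small nucleolar RNA, late cornified envelope and smooth muscle genes among them, also had 0. One untreated array then stands for its group and is taken to vary as the others do. Without the 2 arrays of narrow range, which lie outside this contrast, 634 genes were called, 238 higher and 396 lower. Calls that held with each of the 6 arrays left out in turn numbered 66, or 0.351% of genes, with 51 higher and 15 lower. Centring every array on its median turned the split into 256 higher and 81 lower, or 76.0% higher against 50.1% as deposited. It moved the median change of all genes to 0.0932, against -0.033 as deposited.

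**Figure D1:**
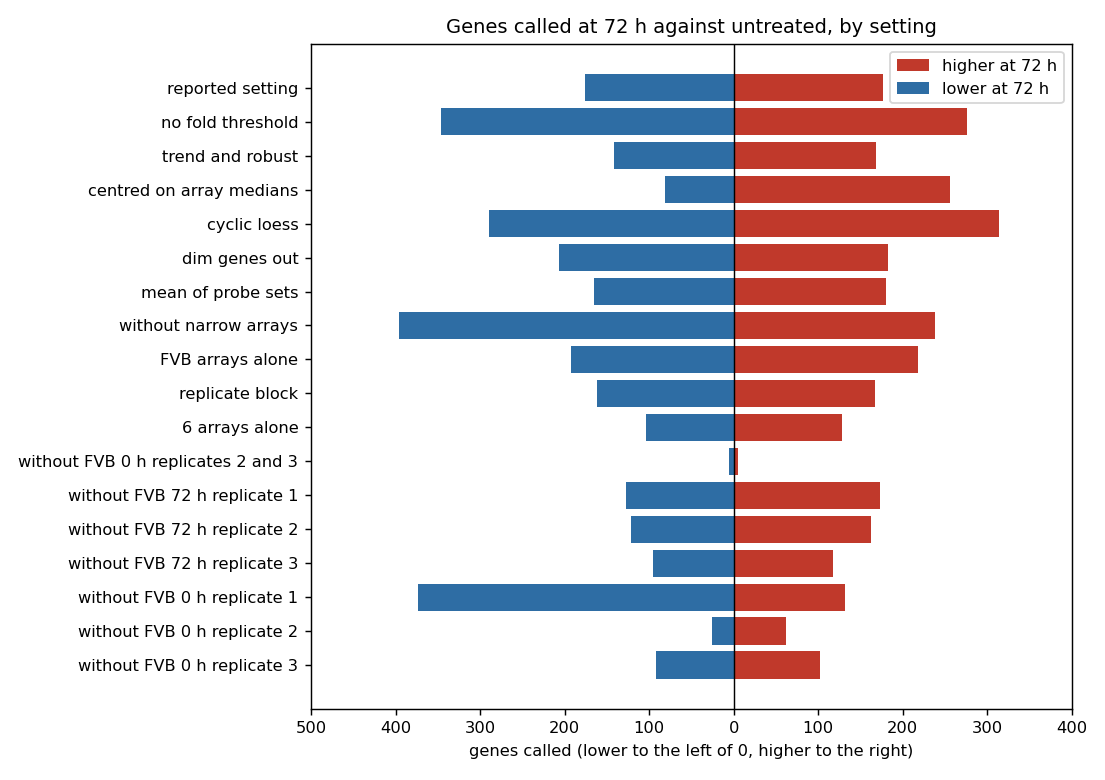
Genes called at 72 h against untreated under each setting, with lower genes drawn to the left of 0 and higher genes to the right. The reported setting has 176 lower and 177 higher genes, and 6 lower and 5 higher remain without untreated replicates 2 and 3.

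The stefin A family, cystatin-type inhibitors of cysteine proteases that cornifying keratinocytes and neutrophils make, held the largest rise of all. Stfa3 stood at 10.02, 8.84 and 9.46 in the 72 h arrays, against 3.84, 4.57 and 5.04 in the untreated arrays. Every 72 h array lay more than 3 log2 units above every untreated one. The change was 4.95 ± 0.71 on the log2 scale (SE of the fit throughout), a factor of 31.0, with an adjusted p of 3.24e-05. Stfa1 had 8.43, 7.18 and 7.85 at 72 h and 3.92, 4.99 and 4.80 untreated, a change of 3.25 ± 0.55 (adjusted p = 0.000546). Csta1 had 8.40, 7.71 and 7.57 at 72 h and 6.33, 6.04 and 6.20 untreated, a change of 1.70 ± 0.26 (adjusted p = 7.63e-05). These 3 of the 5 measured members rose and stayed called with each array left out, and Stfa3 and Stfa1 were also called without untreated replicates 2 and 3 (adjusted p = 0.00817 and 0.029). Csta3, at 1.62, and Csta2, at 0.29, did not pass the test. The list's median change was 1.70, against -0.03 over all genes, of which 0.94% were called higher. Members of this family are near copies of one another, so their probes may share signal.

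The likeness of the leading pair extends to their upstream DNA, shown here because both genes moved together. These are the 250 bases before the start of each gene, 5′ to 3′ on the gene's strand, from RefSeq on GRCm38.p6, at chr16:36455393-36455642 on the minus strand for Stfa3 and chr16:36276898-36277147 on the plus strand for Stfa1. Capitals mark the longest identical stretch, 16 bases.
Stfa3: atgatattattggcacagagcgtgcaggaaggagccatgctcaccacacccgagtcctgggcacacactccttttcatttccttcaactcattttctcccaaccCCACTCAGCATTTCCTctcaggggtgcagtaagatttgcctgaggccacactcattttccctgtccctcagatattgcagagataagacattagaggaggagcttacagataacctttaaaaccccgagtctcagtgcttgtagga
Stfa1: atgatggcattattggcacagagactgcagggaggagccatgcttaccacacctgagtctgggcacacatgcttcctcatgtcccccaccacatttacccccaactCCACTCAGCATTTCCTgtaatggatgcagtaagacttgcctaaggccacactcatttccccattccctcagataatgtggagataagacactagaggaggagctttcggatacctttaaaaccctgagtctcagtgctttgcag
Over a global alignment of 254 columns, 211 bases were identical, or 83.1%. The same window of Csta1 shared 38.5% of its alignment columns with Stfa3 and 39.5% with Stfa1. Its longest stretch in common with each was 17 bases, longer than the 16 of the pair. Windows whose like parts lie at different distances from the start score low in a global alignment. These shares thus do not show the upstream DNA of Csta1 to be unlike. The letters TGANTCA, which an AP-1 factor such as Fos with Jun can bind and which TPA is known to act through, occurred on neither strand of these 3 windows.

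Cytokines of the IL-1 and IL-36 group rose next. Il1f6, the array annotation's name for IL-36 alpha, stood at 10.63, 10.50 and 10.62 at 72 h, against 5.73, 5.92 and 6.59 in untreated skin. The 72 h arrays lay within 0.13 of one another and more than 3 log2 units above the highest untreated array. Its change was 4.50 ± 0.47, a factor of 22.7, with the smallest adjusted p of the genes described here (4.06e-08, and 0.000114 without untreated replicates 2 and 3). Il1f8 (IL-36 beta) had 10.48, 9.50 and 9.74 at 72 h and 7.63, 8.05 and 7.96 untreated (2.03 ± 0.42, adjusted p = 0.005). Il1f9 (IL-36 gamma) had 10.77, 10.16 and 10.28 at 72 h and 8.62, 8.71 and 8.68 untreated (1.73 ± 0.39, adjusted p = 0.00987). All 3 agonists of the IL-36 receptor thus had groups that did not overlap. Il1f5, the antagonist of that receptor, rose as well, by 1.50 ± 0.37 (adjusted p = 0.0196), with 11.07, 10.59 and 10.71 at 72 h and 9.33, 9.29 and 9.26 untreated. Il18, a cytokine that keratinocytes store as a precursor, had 10.47, 10.30 and 9.87 at 72 h and 8.89, 9.10 and 9.12 untreated (1.18 ± 0.24, adjusted p = 0.00443). Il1a, an alarmin released from damaged keratinocytes, had 9.69, 9.60 and 9.48 at 72 h and 8.01, 8.34 and 7.91 untreated (1.51 ± 0.43, adjusted p = 0.0413). In all, 6 of the 13 measured members rose and 0 fell, against 0.94% and 0.935% of all genes. The list's median change was 0.20. Il1f6, Il1f8, Il1f9 and Il18 stayed called with each array left out, whereas Il1a lost its call whichever array was left out (adjusted p 0.079 to 0.128). Il1f5 lost its call without 72 h replicate 1 or untreated replicate 2 or 3, with an adjusted p of up to 0.0814.

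The upstream window of Il1f8 held the AP-1 letters TGANTCA once, with their first base at position -236 relative to the gene's start. It is shown with that match in capitals, from RefSeq on GRCm38.p6 at chr2:24152922-24153171 on the plus strand.
Il1f8: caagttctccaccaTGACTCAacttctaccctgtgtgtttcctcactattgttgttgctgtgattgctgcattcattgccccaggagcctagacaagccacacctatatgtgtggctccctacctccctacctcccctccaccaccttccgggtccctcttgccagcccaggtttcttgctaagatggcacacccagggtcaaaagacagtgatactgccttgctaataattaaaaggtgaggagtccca
The letters TGANTCA occur on either strand in 2217 of 32851 RefSeq windows of this length, or 6.75%. The upstream windows of Il1f9, Il1f5, Il18, Ccl8, Sprr2a1 and Stra6 did not hold them. A match is a run of letters, not a shown site.

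**Figure D2:**
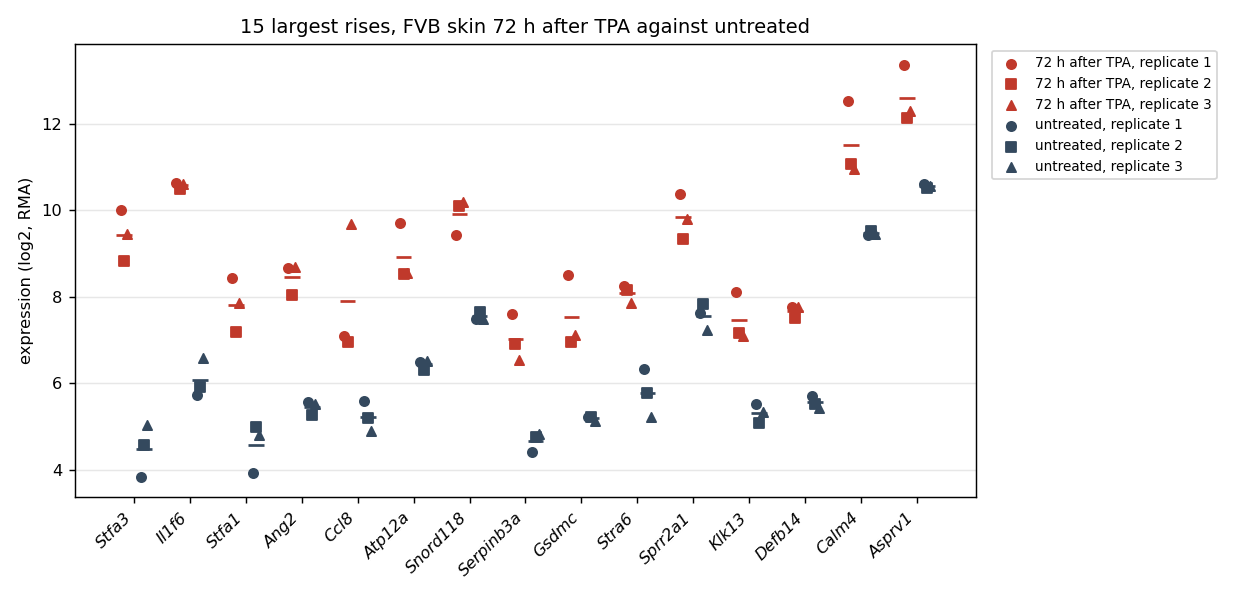
The 15 largest rises among genes with ordinary symbols whose 72 h and untreated arrays did not overlap, with 1 point per array on the deposited log2 scale, 72 h arrays left of untreated arrays and horizontal bars at group means. Stfa3 averages 9.44 at 72 h and 4.48 untreated, and Ccl8 reaches 9.68 in replicate 3 against 7.10 and 6.95 in replicates 1 and 2.

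Secreted defence proteins were also higher. The transcript 2610528A11Rik, which RefSeq lists under the synonym Gpr15l, encodes a ligand of the lymphocyte receptor GPR15. It was named after its values were seen, and it stood at 10.27, 9.42 and 9.51 at 72 h, against 5.27, 5.63 and 5.54 untreated. No 72 h array came within 3 log2 units of an untreated one, and the change of 4.25 ± 0.55 (adjusted p = 5.93e-06) was also called without untreated replicates 2 and 3 (adjusted p = 0.00758). Ang2, a ribonuclease of the angiogenin family and not angiopoietin, had 8.66, 8.05 and 8.69 at 72 h and 5.58, 5.27 and 5.53 untreated (3.01 ± 0.44, adjusted p = 4.06e-05). Defb14, a beta-defensin, had 7.76, 7.52 and 7.76 at 72 h and 5.71, 5.52 and 5.43 untreated (2.13 ± 0.41, adjusted p = 0.00224). These calls held with each array left out. Of 13 alarmins and antimicrobial proteins measured, 8 lay wholly above the untreated arrays (9.83% of all genes did), with a median change of 0.97. Defb14 and Defb6 were called higher (0.94% of all genes were) and 0 fell. The count was 4 without the 2 arrays of narrow range, and 1 without 72 h replicate 3 or untreated replicate 2 or 3. Defb6 was higher by 1.15 and lost its call without 72 h replicate 3 or untreated replicate 2 or 3 (adjusted p up to 0.108). Chil1 (2.30, adjusted p = 0.0587), S100a9 (2.00, adjusted p = 0.114), Saa3 (1.82) and Defb3 (1.31) did not pass the test. Chil1 stood at 10.85 in 72 h replicate 1 and at 8.64 and 8.69 in replicates 2 and 3.

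Some genes of the upper epidermis rose too, most of them highest in 72 h replicate 1. Sprr2a1, a small proline-rich envelope precursor, had 10.37, 9.34 and 9.80 at 72 h and 7.62, 7.83 and 7.24 untreated, a change of 2.27 ± 0.41 (adjusted p = 0.00134). It was the 1 of 13 small proline-rich genes to rise, against 0.94% of all genes. However, 6 lay wholly above the untreated arrays, against 9.83% of all genes, and the median was 0.55. Without the 2 arrays of narrow range, 4 of the 13 were called higher. Sprr2d (2.07, adjusted p = 0.0906) and Sprr4 (1.47, adjusted p = 0.0751) did not pass the test. Of 24 terminal differentiation genes, Asprv1, a protease that processes profilaggrin, and Tgm3, a transglutaminase, rose and 0 fell, and 4 were called higher without those 2 arrays. Asprv1 had 13.37, 12.14 and 12.30 at 72 h and 10.60, 10.51 and 10.57 untreated (2.04 ± 0.54, adjusted p = 0.0288). Tgm3 was higher by 1.50 ± 0.43 (adjusted p = 0.0421). Replicate 1 was the highest of the 72 h arrays for both, and without it the adjusted p was 0.121 for Asprv1 and 0.208 for Tgm3. Asprv1 also lost its call without 72 h replicate 3 or untreated replicate 2 or 3, and Tgm3 kept its call only without 72 h replicate 3. The list's median array score, the median over members of the value minus the untreated mean, was 0.96, 0.29 and 0.28 in the 72 h arrays. Casp14 (1.30, adjusted p = 0.0537), Lce3c (1.67, adjusted p = 0.0503) and the suprabasal keratin Krt2 (-1.18, adjusted p = 0.127) missed the threshold. Calm4, a calmodulin-like protein of differentiating keratinocytes, had 12.52, 11.07 and 10.96 at 72 h and 9.44, 9.53 and 9.45 untreated (2.04 ± 0.50, adjusted p = 0.0176, and up to 0.111 with 1 array left out, lost without 72 h replicate 1 or untreated replicate 2 or 3).

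Late cornified envelope genes, a cluster whose products are cross-linked under the membrane of cornifying cells, were looked at after the values were seen. Of 15 measured, 7 rose and 0 fell, against 0.94% and 0.935% of all genes, with a median change of 1.27. Wholly above the untreated arrays lay 11, against 9.83% of all genes. Lce1g had 7.10, 6.37 and 6.32 at 72 h and 4.90, 4.67 and 5.01 untreated (1.74 ± 0.28, adjusted p = 0.000288). Lce6a had 11.34, 11.27 and 11.17 at 72 h and 9.70, 9.93 and 10.00 untreated (1.38 ± 0.27, adjusted p = 0.00297). Lce1d, Lce1i, Lce1h, Lce1f and Lce1a2 were higher by 1.27 to 1.72. The genes of this cluster are alike in sequence, so single members are uncertain. Lce1d, Lce1g, Lce1i and Lce6a stayed called with each array left out, and Lce1h, Lce1f and Lce1a2 lost their calls without 72 h replicate 1 (adjusted p = 0.0615, 0.0731 and 0.0545), and Lce1h also without untreated replicate 2 or 3. The count without 72 h replicate 1 was 4.

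Other called rises included a gasdermin, an ion pump, a serpin and proteases. Gsdmc, a gasdermin whose cleaved form makes pores in membranes, had 8.50, 6.96 and 7.13 at 72 h and 5.22, 5.22 and 5.14 untreated (2.33 ± 0.42, adjusted p = 0.00134). It was 1 of 6 gasdermins to rise, with Gsdmc2 at 1.28 and Gsdma at 1.18 not passing the test and a list median of 0.97. Without the 2 arrays of narrow range, 3 of the 6 were called. Atp12a, a proton and potassium pump, had 9.71, 8.52 and 8.55 at 72 h and 6.50, 6.31 and 6.53 untreated (2.48 ± 0.51, adjusted p = 0.00449). Serpinb3a, a serpin, was higher by 2.35 ± 0.67 and the kallikrein protease Klk13 by 2.14 ± 0.60, and both calls were lost whichever array was left out (adjusted p up to 0.128 and 0.146). Among 21 kallikreins, counted after the values were seen, Klk13, Klk8 (1.78) and Klk9 (1.52) rose and 0 fell, with a median of 0.24. Of all genes, 0.94% were called higher. Klk9 kept its call only without 72 h replicate 2 (up to 0.164 otherwise), and the count was 2 without that array and 1 without any other. Klk8 stayed called with each array left out. The same held for Gsdmc, Atp12a, Ggh, a hydrolase of folate polyglutamates (1.84), Glrx, a glutaredoxin (1.66), Plk3, a polo-like kinase (1.65), Lipk, an epidermal lipase (1.62), and Tfrc, the transferrin receptor (1.25). Znfx1, a helicase-like zinc finger protein, had 9.38, 9.03 and 9.31 at 72 h and 7.76, 7.73 and 7.77 untreated. Its change of 1.49 ± 0.19 (adjusted p = 5.93e-06) was called without untreated replicates 2 and 3 too (adjusted p = 0.0149).

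Genes of retinoid uptake and oxidation included 3 rises among 12 measured, counted after the values were seen, with 0 falls and a median of -0.12. Of all genes, 0.94% were called higher and 0.935% lower. Stra6, the membrane receptor that takes up retinol, had 8.26, 8.16 and 7.85 at 72 h and 6.34, 5.78 and 5.23 untreated (2.30 ± 0.43, adjusted p = 0.00177). Its 72 h arrays all lay above the highest untreated array, and the call held with each array left out. Rbp2, a retinol-binding protein of the cytosol, had 9.15, 7.14 and 7.31 at 72 h and 6.17, 6.10 and 5.75 untreated (1.86 ± 0.47, adjusted p = 0.0232). Aldh1a3, which oxidises retinal to retinoic acid, was higher by 1.50 ± 0.32 (adjusted p = 0.00632), and it was the 1 of 21 genes of xenobiotic and retinoid oxidation to rise, with 0 falls, or 2 falls without the 2 arrays of narrow range. Both calls were lost without 72 h replicate 1 (adjusted p = 0.169 for Rbp2 and 0.0545 for Aldh1a3), and that of Rbp2 also without untreated replicate 2 or 3. The count of retinoid genes was 1 without 72 h replicate 1 and 2 without untreated replicate 2 or 3. That oxidation list had a median of -0.63, with 8 of 21 wholly lower and 2 wholly higher, against 14.4% and 9.83% of all genes. By limma, 8 of the 21 had an unadjusted p under 0.05. In the same list Cyp2g1 was at -1.52 (adjusted p = 0.0799) and Cyp3a57 at -1.13 (adjusted p = 0.118).

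Ribosomal protein genes and small nucleolar RNAs, both counted after the values were seen, were higher at 72 h. Of 72 cytoplasmic ribosomal protein genes, 18 rose and 0 fell, against 0.94% and 0.935% of all genes. Of the 72, 54 lay wholly above the untreated arrays, against 9.83% of all genes, and the median change was 0.76. Their median score was 0.83, 0.75 and 0.78 in the 72 h arrays and -0.02, -0.01 and 0.01 in the untreated arrays, so the 3 arrays of each group were close. Rps12, of the small subunit, had 11.57, 11.11 and 11.29 at 72 h and 9.65, 9.78 and 9.59 untreated (1.65 ± 0.34, adjusted p = 0.00495). Rpl13a, of the large subunit, had 11.65, 11.73 and 11.88 at 72 h and 10.40, 10.58 and 10.51 untreated (1.25 ± 0.26, adjusted p = 0.00433). Rps14 (1.17), Rps27 (1.13), Rpl7 (1.30) and Rplp2 (1.23) also stayed called with each array left out. Their count was 6 without untreated replicate 2, 10 without 72 h replicate 1 or 3 or untreated replicate 1, and 11 without untreated replicate 3. Many copies and pseudogenes of these genes exist, so their probes may share signal.

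Small nucleolar RNAs guide chemical modification or cleavage of ribosomal RNA, and many lie in introns of ribosomal protein genes. Of 57 measured, 17 rose and 0 fell, against 0.94% and 0.935% of all genes. The median was 0.74, and 40 lay wholly above the untreated arrays, against 9.83% of all genes. Snord118, the U8 RNA, had 9.44, 10.09 and 10.20 at 72 h and 7.50, 7.66 and 7.50 untreated (2.36 ± 0.49, adjusted p = 0.00463). Snord33 (1.60) and Snord35a (1.57), which lie in introns of Rpl13a, stayed called with each array left out, as did Snord118. Snord47 (1.86) and Rnu3a, a U3 RNA not counted among the 57 (1.90), lost their calls without 72 h replicate 3, with adjusted p of 0.12 and 0.0878. The count was 4 without 72 h replicate 3 or untreated replicate 1 or 2, and 11 without 72 h replicate 2. Rnu3a was also lost without 72 h replicate 2, and both without untreated replicate 1 or 2.

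Of 307 microRNA genes, 2 rose and 0 fell, also counted after the values were seen, with a median of 0.03. Over all genes 0.94% were called higher and 0.935% lower, so microRNA genes were not called more often than others. The microRNA count was 4 without 72 h replicate 2 and 1 without untreated replicate 2 or 3. Mir703 had 10.95, 10.45 and 10.35 at 72 h and 8.59, 8.74 and 8.88 untreated (1.84 ± 0.34, adjusted p = 0.00134). Mir203, whose product holds back the stem cell factor p63 as epidermal cells leave the basal layer, had 7.12, 5.83 and 6.51 at 72 h and 5.25, 5.09 and 5.54 untreated (1.20 ± 0.36, adjusted p = 0.0494). Its groups did not overlap, but the call was lost without any 1 of the 6 arrays except 72 h replicate 2, with an adjusted p of up to 0.211. The mature sequences of its hairpin are shown because the seed, bases 2 to 8 in capitals, sets which messages it can pair with. They are from RefSeq on GRCm38.p6, at chr12:112130889-112130910 and chr12:112130927-112130948 on the plus strand.
miR-203-5p: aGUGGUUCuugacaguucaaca
miR-203-3p: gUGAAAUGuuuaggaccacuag
Which of the mature arms the probes saw is not known, since the array labels the hairpin gene.

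Among the falls were genes of the hair shaft: 2 hair keratins, Krtap13 and the related 2310057N15Rik. Krt84, a hair keratin, had 4.53, 3.73 and 3.31 at 72 h, against 6.90, 7.31 and 7.87 untreated. Every 72 h array lay more than 2 log2 units below every untreated one, and the change was -3.50 ± 0.85 (adjusted p = 0.0169). The call was lost without 72 h replicate 3 or untreated replicate 2 or 3, with an adjusted p of up to 0.0723. Krtap13, a keratin-associated protein that packs between hair keratin filaments, had 2.88, 3.06 and 2.87 at 72 h and 4.90, 4.95 and 5.28 untreated. It fell by 2.10 ± 0.28 on the log2 scale (adjusted p = 1.08e-05), and it stayed called with each array left out and without untreated replicates 2 and 3 (adjusted p = 0.0394). The related 2310057N15Rik, listed by RefSeq under the synonym Krtap13-1 and named here after its values were seen, fell by 2.38 ± 0.35 (adjusted p = 4.14e-05). Of 12 hair shaft keratins, Krt84 and Krt36 (-2.06, adjusted p = 0.0373) fell and 0 rose, with a median of -0.54. Of all genes, 0.935% were called lower. Krt36 lost its call without any 1 of the 6 arrays except untreated replicate 1 (adjusted p up to 0.138). Of 45 genes whose symbols start with Krtap, a count that leaves out 2310057N15Rik, Krtap13 alone was called, in either direction. Of these 45, 16 were wholly lower and 2 wholly higher, against 14.4% and 9.83% of all genes. Their median was -0.23. Krtap7-1 (-2.59, adjusted p = 0.245) and Krtap6-1 (-2.54, adjusted p = 0.204) did not pass the test, nor did Krt39 (-1.25). None of 14 inner root sheath genes was called by limma, with a median of -0.33 and 1 at an unadjusted p under 0.05. In bulk skin, fewer cells of a type and less RNA in each cell cannot be told apart.

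**Figure D3:**
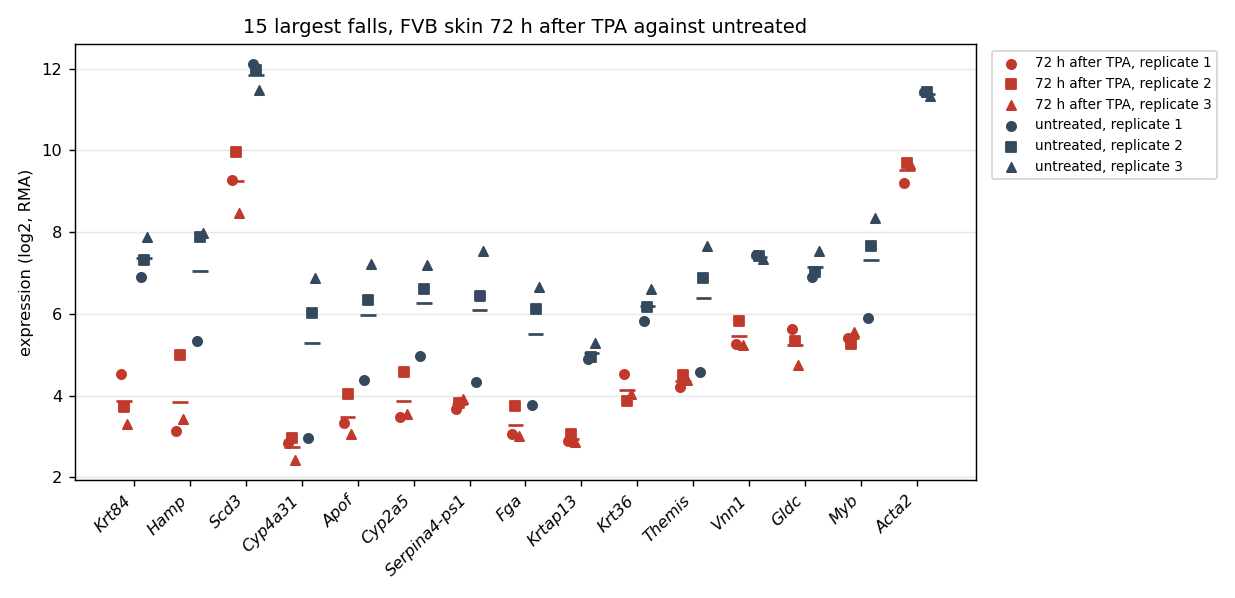
The 15 largest falls among genes with ordinary symbols whose 72 h and untreated arrays did not overlap, with 1 point per array on the deposited log2 scale, 72 h arrays left of untreated arrays and horizontal bars at group means. Acta2 and Vnn1 have untreated arrays within 0.12 of one another, while Cyp4a31 spans 2.97 to 6.87 in untreated skin.

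Signals that control the follicle gave a few falls. Bmp2, a bone morphogenetic protein, had 7.76, 7.94 and 7.06 at 72 h and 9.07, 9.19 and 8.81 untreated (-1.43 ± 0.31, adjusted p = 0.00791). Fgf18, a growth factor that keeps follicles at rest, had 6.69, 6.92 and 6.28 at 72 h and 8.44, 8.04 and 8.00 untreated (-1.53 ± 0.36, adjusted p = 0.014). Both lost their calls without 72 h replicate 3 or untreated replicate 2 (adjusted p up to 0.0646 and 0.0675). Notum, a secreted enzyme that inactivates Wnt proteins, had 4.93, 5.22 and 5.21 at 72 h and 6.53, 6.91 and 6.92 untreated, and fell by 1.67 ± 0.32 (adjusted p = 0.00244) with each array left out too. Bmp2 was the 1 of 15 hair matrix regulators to fall, with a median of -0.07, and Fgf18 the 1 of 14 follicle stem cell markers, with a median of -0.48. Both lists had 0 rises, and over all genes 0.935% were called lower. Of the stem cell markers, 3 were called without 72 h replicate 2 and 2 without untreated replicate 3, and of the matrix regulators 2 without untreated replicate 1. Without the 2 arrays of narrow range each list had 2 called lower. Lef1 (-1.54, adjusted p = 0.0559), Lgr5 (-1.11, adjusted p = 0.0519) and Sostdc1 (-0.87, adjusted p = 0.0866) missed the threshold, and Nfatc1 had an adjusted p of 0.0426 with a change of -0.77, under the size asked for.

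Of 19 lipid genes of the sebaceous gland, Scd3 and Mc5r fell and 0 rose, against 0.935% and 0.94% of all genes. The median was -0.39. Scd3, a stearoyl-CoA desaturase, had 9.28, 9.97 and 8.47 at 72 h and 12.12, 11.96 and 11.48 untreated (-2.61 ± 0.58, adjusted p = 0.00835). Mc5r, the melanocortin receptor of the gland, had 8.04, 7.90 and 7.62 at 72 h and 9.73, 9.32 and 8.98 untreated (-1.49 ± 0.36, adjusted p = 0.0166). Neither gene's groups overlapped. Both calls were lost without 72 h replicate 3 or untreated replicate 2 (adjusted p up to 0.0601 and 0.0678), and that of Mc5r also without untreated replicate 1.

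Contractile genes of smooth muscle, which in skin serve the arrector pili and vessel walls, were counted after the values were seen. Of 10 measured, 5 fell and 0 rose, against 0.935% and 0.94% of all genes. The median was -0.94, and 7 were wholly lower, against 14.4% of all genes. Acta2, smooth muscle actin, had 9.20, 9.70 and 9.67 at 72 h and 11.42, 11.44 and 11.32 untreated (-1.87 ± 0.49, adjusted p = 0.0274). Actg2, the enteric form of that actin, had 6.85, 7.28 and 6.91 at 72 h and 8.59, 8.44 and 8.49 untreated (-1.49 ± 0.31, adjusted p = 0.00433). Cnn1, a calponin, fell by 1.75, Myh11, the smooth muscle myosin, by 1.48 and Tagln, transgelin, by 1.15. In every case the 3 untreated arrays lay above the 3 arrays at 72 h. Actg2 stayed called with each array left out, Cnn1 lost its call without 72 h replicate 1 or untreated replicate 2 (adjusted p up to 0.0521), and Myh11 lost it whichever array was left out (up to 0.147). Acta2 and Tagln kept it only without 72 h replicate 2 and 72 h replicate 3, in that order (up to 0.106 and 0.19 otherwise). The count of 5 was 1 without 72 h replicate 1 or untreated replicate 2, 2 without untreated replicate 1 or 3, and 3 without 72 h replicate 2 or 3. The smooth muscle score was -1.53, -0.83 and -0.50 in the 72 h arrays, in which skeletal muscle genes scored -0.64, 1.36 and 3.19, and the part of that in these falls was not tested.

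Liver-abundant transcripts supplied many of the largest falls, and their untreated levels differed between arrays. Of 25 measured, 11 were called lower and 0 higher, against 0.935% and 0.94% of all genes, with a median of -2.50. Their median score was -3.31, -1.41 and -2.86 in the 72 h arrays, against -1.98, 0.76 and 1.25 in the untreated arrays, so untreated replicates 2 and 3 were high and replicate 1 lay among the 72 h arrays. Apof, an apolipoprotein, had 3.33, 4.05 and 3.07 at 72 h and 4.39, 6.35 and 7.21 untreated (-2.50 ± 0.65, adjusted p = 0.0244). Hamp, the iron hormone hepcidin, was lower by 3.21 ± 0.80 (adjusted p = 0.0194), or by 1.48 without untreated replicates 2 and 3 (adjusted p = 0.703). Ahsg, a plasma glycoprotein made in liver, had 2.99, 5.87 and 3.86 at 72 h and 5.42, 8.41 and 8.85 untreated (-3.32 ± 0.90, adjusted p = 0.032), with overlapping groups. Albumin (Alb) was at 3.22, 9.38 and 7.41 at 72 h and at 8.38, 10.29 and 10.39 untreated, and did not pass the test. Without untreated replicate 2 or 3, or both, 0 of the 25 were called, and the median without both was -0.43. The count was 1 without 72 h replicate 1 or 3 and 22 without untreated replicate 1, and it was 20 without the 2 arrays of narrow range. Cyp4a31 had a difference of -0.23 without both, Apof -0.91 and Fga -0.49, whereas with all arrays Cyp4a31 was at -2.54 and Fga at -2.25. Apoa1, Fgb, Fgg, F2, Ttr and Cps1 were the other members called, all with overlapping groups. Cyp2a5 (-2.40) and Serpina4-ps1 (-2.30), large falls outside the list, had the same high untreated replicates 2 and 3. Hamp2 differed from Hamp: it had 5.43, 6.74 and 6.15 at 72 h and 7.66, 8.04 and 7.73 untreated, fell by 1.70 ± 0.33 (adjusted p = 0.00308) and stayed called with each array left out.

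The same untreated arrays were high in T cell genes. Themis, a T cell signalling protein, had 4.22, 4.51 and 4.39 at 72 h and 4.58, 6.89 and 7.66 untreated. Myb, a transcription factor of blood progenitors and thymocytes, had 5.40, 5.27 and 5.56 at 72 h and 5.91, 7.66 and 8.35 untreated. Both were called (adjusted p = 0.0474 and 0.0472), but without untreated replicates 2 and 3 the differences were -0.21 and -0.50 and neither was. Each lost its call without any 1 array except untreated replicate 1. Of 13 markers of T and B lymphocytes, 0 were called by limma, with a median of -0.80 and 8 at an unadjusted p under 0.05. Cd8a had 4.95, 4.45 and 4.85 at 72 h and 4.67, 7.39 and 8.19 untreated (adjusted p = 0.0603), and Cd8b1 was at -2.10 (adjusted p = 0.051). Without those 2 controls the differences were 0.08 for Cd8a and 0.05 for Cd8b1. Ucp1 of brown fat showed the pattern too, with 3.71, 3.33 and 3.42 at 72 h and 3.61, 6.46 and 7.25 untreated. Among the 176 genes called lower, 43 had untreated replicates 2 and 3 both at least 1 above replicate 1, against 0 of the 177 called higher and 350 of all 18820 genes. The same untreated values made the calls, so the split of 43 and 0 was in part fixed by them. The part of other tissue in these calls was not tested. Without untreated replicate 1, 3 of the 13 lymphocyte markers were called, and 3 without the 2 arrays of narrow range.

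Among other falls, Vnn1 and B4galnt2 did not have untreated replicates 2 and 3 above replicate 1, whereas Stat4 did. Vnn1, a pantetheinase, had 5.27, 5.83 and 5.23 at 72 h and 7.44, 7.41 and 7.35 untreated (-1.95 ± 0.43, adjusted p = 0.00877). B4galnt2, a glycosyltransferase, had 4.36, 3.82 and 3.95 at 72 h and 5.92, 5.73 and 5.43 untreated (-1.65 ± 0.23, adjusted p = 2.67e-05), and was called without untreated replicates 2 and 3 as well (adjusted p = 0.00758). Stat4, a transcription factor downstream of IL-12, had 3.89, 3.81 and 4.23 at 72 h and 5.12, 5.66 and 5.94 untreated (-1.60 ± 0.34, adjusted p = 0.00586). These 3 stayed called with each array left out, as did Grid1, a glutamate receptor subunit (-1.22), and Pld5, a phospholipase D family member (-1.21). Gldc, the glycine decarboxylase (-1.91, adjusted p = 0.0168), lost its call without 72 h replicate 3 or untreated replicate 2 or 3 (up to 0.0817). Slc23a1, an ascorbate transporter (-1.86, adjusted p = 0.0323), lost it without any 1 array except untreated replicate 1 (up to 0.189).

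Of the clock genes, 1 of 14 rose and 1 fell, against 0.94% and 0.935% of all genes, with a median of 0.14. Npas2, a partner of Bmal1, had 6.01, 6.36 and 5.84 at 72 h and 7.48, 7.63 and 7.56 untreated, and fell by 1.49 ± 0.27 (adjusted p = 0.00134) with each array left out too. Bhlhe40, a repressor in the same loop, had 8.16, 6.93 and 7.62 at 72 h and 6.39, 6.42 and 6.35 untreated (1.18 ± 0.29, adjusted p = 0.0177), and kept its call only without 72 h replicate 2 or untreated replicate 1 (up to 0.113 otherwise). The labels used here give no time of day for sampling.

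Inflammatory genes were mostly uncalled at 72 h. Of 27 chemokines, Ccl8 rose and Ccl22 fell, against 0.94% and 0.935% of all genes, with a median of -0.17. Ccl8, which draws monocytes and T cells, had 7.10, 6.95 and 9.68 at 72 h and 5.59, 5.20 and 4.89 untreated (2.68 ± 0.65, adjusted p = 0.017). It was highest in 72 h replicate 3, and without that array the change was 1.80 with an adjusted p of 0.139. The call was also lost without untreated replicate 2 or 3. Ccl22, which draws Ccr4-bearing T cells, was lower by 1.22 (adjusted p = 0.0443), a call lost whichever array was left out (up to 0.145). Ccl20 was at 1.09 (adjusted p = 0.318). Of 19 interferon-response genes, Ifit1 (-1.42, adjusted p = 0.0465) and Mx2 (-1.07, adjusted p = 0.0499) were called lower and 0 higher, with a median of -0.28. Ifit1 stood at 4.59, 4.03 and 6.28 at 72 h and 6.01, 6.48 and 6.69 untreated, so the groups overlapped through 72 h replicate 3. Without that array both calls held, and without 72 h replicate 2 the adjusted p was 0.265 for Ifit1 and 0.364 for Mx2. Both were also lost without 72 h replicate 1 or untreated replicate 2 or 3, and Mx2 without untreated replicate 1. Usp18 (-1.27, adjusted p = 0.0508) missed the threshold.

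Lists of dividing cells and of most other cell types had no called member under limma. DNA replication (18 measured, median -0.14) and mitosis (21 measured, median -0.21) had 0 called, with 1 and 2 members at an unadjusted p under 0.05. Ccna2 (-0.75, adjusted p = 0.112), Ccnb2 (-0.75, adjusted p = 0.0871) and Cdc6 (0.58, adjusted p = 0.12) had the values given. The 14 basal keratinocyte and hemidesmosome genes had 0 called, a median of -0.38 and 3 at an unadjusted p under 0.05, with Lama3 at -0.79 and Itga6 at -0.73. The 17 matrix proteases and inhibitors had 0 called and 3 at an unadjusted p under 0.05, with a median of 0.08 and Mmp9 at -1.38 (adjusted p = 0.0838). The 19 collagen and fibroblast genes had 0 called, a median of -0.43 and 2 at an unadjusted p under 0.05, with Sparc at -0.96 and Col1a1 at -0.70. Their score was -0.93, -0.80 and 0.51 in the 72 h arrays, so replicate 3 stood apart. Of the matrix proteases and inhibitors, 2 were called lower without the 2 arrays of narrow range, and of the collagen and fibroblast genes 1 was called without 72 h replicate 1.

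Immune cell lists were likewise without calls. Macrophage and monocyte markers (17 measured, median 0.16, 1 at an unadjusted p under 0.05) scored 1.02 in 72 h replicate 3, against -0.10 and -0.26 in replicates 1 and 2, and Ms4a7 stood at 4.76, 4.62 and 7.33 in the 72 h arrays. Mast cell markers (12, median 0.22, 2 at that p) scored 0.96 in replicate 3, against -0.20 and -0.01. Neutrophil markers (15, median 0.17, 3 at that p) included Cxcr2 at 1.24 (adjusted p = 0.21), and without the 2 arrays of narrow range 1 was called higher and 1 lower. Langerhans cell and class II genes (13, median -0.14) had 2 at that p, endothelial markers (12, median -0.24) had 1, melanocyte pigment genes (12, median 0.18) had 3, and pancreas-abundant transcripts (11, median -0.45) had 0. A list without a call is not shown to be unchanged.

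**Figure D4:**
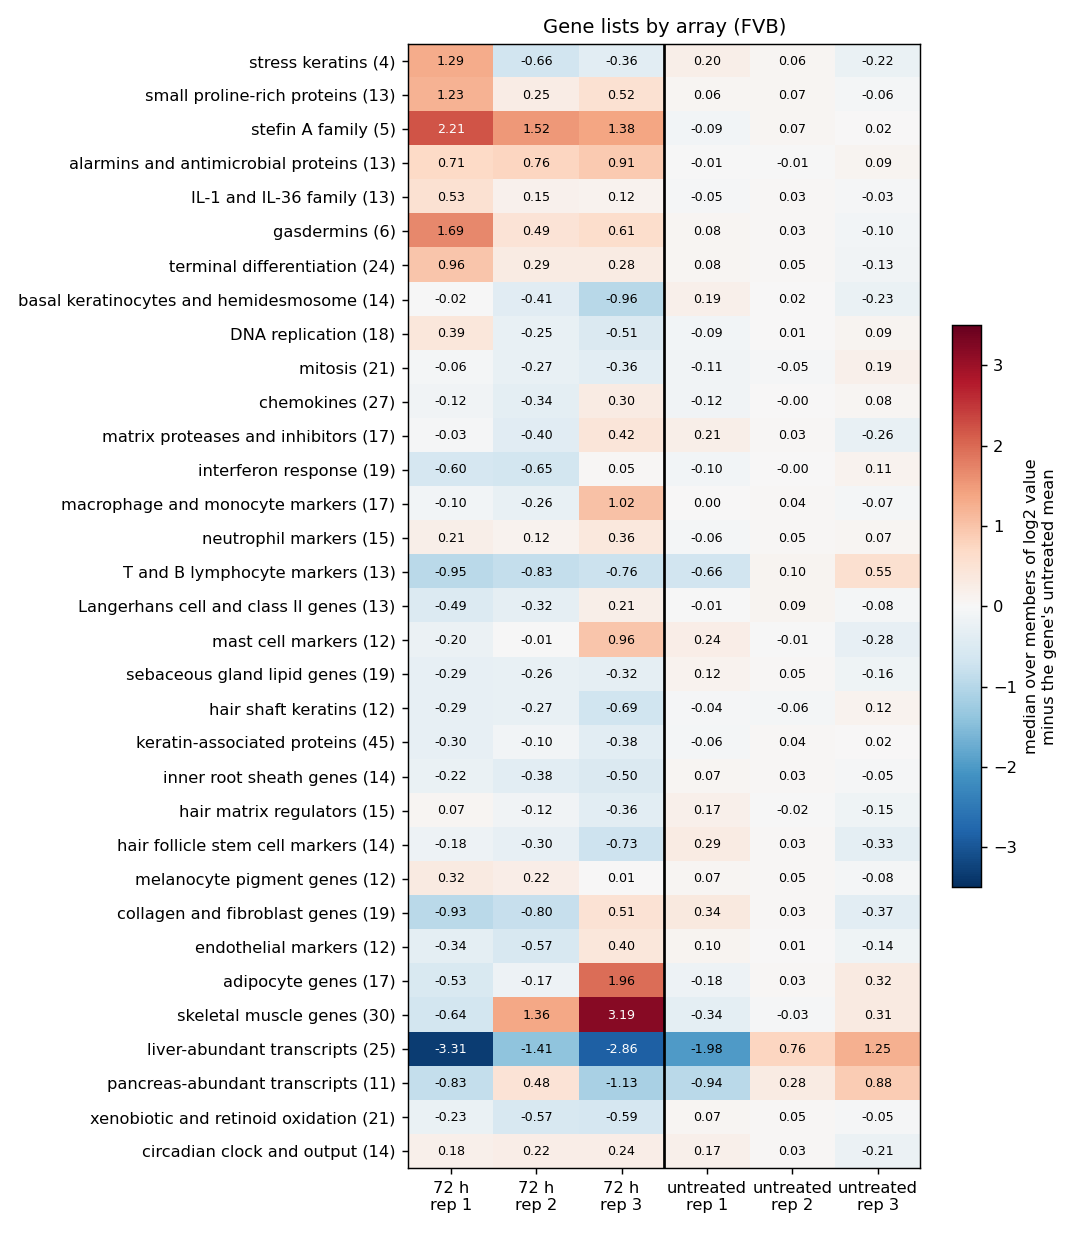
Median score of each gene list in the 6 arrays, as the median over measured members of the log2 value minus the gene's untreated mean, with the number of measured members in brackets and 72 h arrays left of untreated arrays. The stefin A family scores 2.21, 1.52 and 1.38 at 72 h, skeletal muscle genes reach 3.19 in 72 h replicate 3, and liver-abundant transcripts reach 1.25 in untreated replicate 3.

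Skeletal muscle and fat genes differed between the 72 h arrays. The 30 muscle genes scored -0.64, 1.36 and 3.19 in the 72 h arrays, against -0.34, -0.03 and 0.31 in the untreated arrays. Myh2, a fast myosin, had 4.35, 7.34 and 8.78 at 72 h and 4.80, 5.08 and 5.12 untreated. Replicate 1 thus lay below all untreated arrays while replicates 2 and 3 lay above them. None of the 30 was called by limma, 11 had an unadjusted p under 0.05, and the median change was 1.16, or 0.21 without replicate 3. Without replicate 1, 11 were called. The 17 adipocyte genes scored -0.53, -0.17 and 1.96 at 72 h and -0.18, 0.03 and 0.32 untreated, with 0 called, 5 at an unadjusted p under 0.05 and a median of 0.50, or -0.44 without replicate 3. Of these, 2 were called without untreated replicate 1, and 1 was called lower without the 2 arrays of narrow range. Lep, the fat hormone leptin, had 3.98, 4.40 and 8.47 at 72 h and 4.33, 3.88 and 4.71 untreated, a difference of 1.31 that was -0.11 without replicate 3. Among the 177 genes called higher, 6 had 72 h replicate 3 at least 1 above both other 72 h arrays, against 600 of all 18820 genes. The same 72 h values entered the calls.

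Stress keratins, which activated epidermis makes, differed between the 72 h arrays and were not called against untreated skin. Krt6b stood at 9.14, 6.21 and 7.34 at 72 h, against 7.64, 7.66 and 7.54 untreated, with a difference of -0.05 (adjusted p = 0.984) that was 0.08 after centring and 0.05 after cyclic loess. Krt16 had 9.37, 6.49 and 7.50 at 72 h and 7.04, 6.81 and 6.67 untreated (0.94, adjusted p = 0.522). Krt6a had 7.97, 6.61 and 6.57 at 72 h and 7.78, 7.65 and 7.31 untreated (-0.53, adjusted p = 0.592). Replicate 1 was the highest of the 72 h arrays for each. Under limma 0 of the 4 measured were called and 0 had an unadjusted p under 0.05.

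Set directly against 48 h, with no control in common, 72 h skin called 135 genes (0.717% of those tested), with 63 higher (0.335%) and 72 lower (0.383%). The lower genes included the stress keratins. Krt6b had 9.14, 6.21 and 7.34 at 72 h and 10.63, 12.00 and 11.28 at 48 h (-3.74 ± 0.76, adjusted p = 0.0111). Krt16 was lower by 2.91 and Krt6a by 1.87, so 3 of 4 stress keratins fell, with a list median of -2.39. Chil4, a chitinase-like protein of alternatively activated macrophages, had 2.71, 2.65 and 2.27 at 72 h and 5.12, 5.91 and 5.05 at 48 h, and fell by 2.81 ± 0.39 (adjusted p = 9.6e-05). The macrophage elastase Mmp12 had 5.18, 5.70 and 6.67 at 72 h and 10.23, 7.89 and 7.20 at 48 h (-2.59 ± 0.47, adjusted p = 0.00311). Lcn2, the iron-scavenging lipocalin, fell by 2.53, Sprr1b by 2.51 and the collagenase Mmp13 by 2.34. The groups did not overlap for any of these. Sprr2a1 (-1.66) and Gsdmc (-1.58) were lower than at 48 h while called higher than untreated, and 5 genes in all were called in both comparisons. For Stfa3 the difference was -0.70 (adjusted p = 0.641) and for Il1f6 0.06 (adjusted p = 0.968).

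The genes higher than at 48 h included 10 of 30 skeletal muscle genes and 0 lower, with a list median of 2.58. Mybpc2, a myosin-binding protein, had 4.53, 7.01 and 9.10 at 72 h and 3.83, 3.91 and 2.85 at 48 h (3.35 ± 0.73, adjusted p = 0.0182). Tnnt3 (3.41), Ckm (2.70), Apobec2 (2.67), Actn2 (2.66) and Mb (2.50) behaved alike, each highest in 72 h replicate 3. Without that array 81 genes were called against 48 h (0.43%), 19 higher (0.101%) and 62 lower (0.329%), and 0 of the 30 muscle genes. Without 72 h replicate 2, 11 genes were called, without 72 h replicate 1, 636, without 48 h replicate 2, 820, and without 48 h replicate 3, 65. Chil4 and Mmp12 kept their calls with each of the 6 arrays left out, and Krt6b with each but 72 h replicate 2 (adjusted p = 0.175 without it). The other 7 genes named as lower, and the 6 muscle genes, each lost their calls without 72 h replicate 2 and without 72 h replicate 3, and each also without at least 1 of the 48 h arrays.

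Against 168 h, skin at 72 h called 1 gene, 0.00531% of those tested, while 1442 had an unadjusted p under 0.05. Tmem231, a protein of the ciliary transition zone, had 6.75, 6.15 and 5.81 at 72 h and 7.34, 7.18 and 7.48 at 168 h (-1.09 ± 0.19, adjusted p = 0.00962). Without 72 h replicate 1, 147 genes were called, and without 72 h replicate 2 or 3 or 168 h replicate 1 or 3, 0 were (749 to 1252 at an unadjusted p under 0.05). Against untreated skin, all with the same controls, the counts over the course were 1258 (2 h), 2319 (6 h), 1958 (12 h), 1032 (24 h), 1119 (48 h), 353 (72 h), 72 (168 h) and 1532 (1008 h). The design text mentions replicate exposures, so the number of TPA doses before 1008 h is open.

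**Figure D5:**
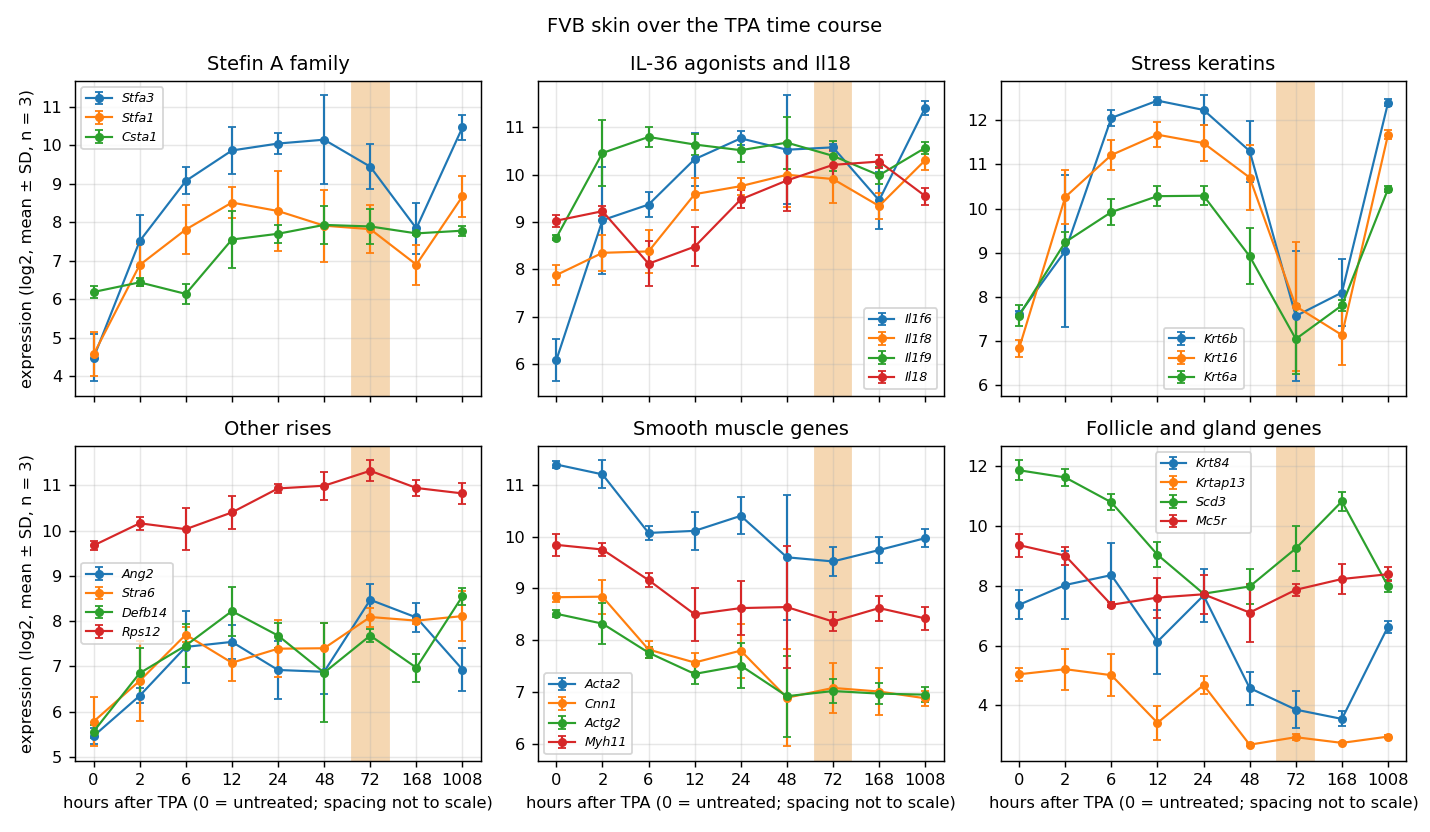
Mean and SD (n = 3 arrays) of named genes over the FVB time course on the deposited log2 scale, with the 72 h column shaded and time points evenly spaced. Il1f6 stays near 10.53 at 48 h and 10.58 at 72 h, whereas Krt6b averages 11.30 at 48 h and 7.57 at 72 h, and Ang2 is highest at 72 h, with 8.47.

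Across the course, the genes that rose at 72 h had different times of highest mean. Il1f6 averaged 6.08 in untreated skin, 9.04 by 2 h, 10.77 at 24 h and 10.58 at 72 h, with 9.46 at 168 h. Its highest mean, 11.42, was at 1008 h, for which the number of doses is open. Stfa3 averaged 10.14 at 48 h, 9.44 at 72 h and 7.84 at 168 h, and Ang2 6.88, 8.47 and 8.08 at those times. Rps12 averaged 10.99 at 48 h, 11.32 at 72 h and 10.94 at 168 h. Of the falls, Krtap13 had means of 2.69, 2.94 and 2.75 over 48, 72 and 168 h. Scd3 had means of 7.97, 9.24 and 10.81 over the same times, against 11.85 untreated.

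The response of F1 skin at 72 h differed from that of FVB skin, as an interaction term, for 68 genes (0.361% of those tested), 19 of them called in FVB. The F1 change minus the FVB change was above 0 for 8 (0.0425%) and below 0 for 60 (0.319%). All FVB arrays lay in batch 1 of the labels, both F1 arrays at 72 h in batch 2 and the untreated F1 arrays in batches 2 and 3, so strain and batch cannot be told apart in the levels, and the batch 3 arrays entered with a batch term. Krtap13 had 3.54 and 3.78 in F1 at 72 h and 3.53, 3.54, 3.56 and 3.75 in untreated F1. Its change was 0.08 in F1 and -2.10 in FVB, a difference of 2.18 ± 0.42 (adjusted p = 0.0161). Untreated F1 skin already stood below every untreated FVB array for this gene, and whether that lower start limited a fall was not tested. Znfx1 had a change of 0.24 in F1 and 1.49 in FVB (difference -1.25 ± 0.28, adjusted p = 0.0305). Replicate 2 of F1 at 72 h was 1 of the 2 arrays of narrow range, with interquartile ranges of 1.62 and 2.47. Without it 0 genes were called for the difference (931 at an unadjusted p under 0.05), and without replicate 1, 2556. Without both arrays of narrow range it was 63, of which 32 were above 0 and 31 below. The count was also 20 and 35 without FVB 72 h replicates 2 and 3, between 8 and 301 without each FVB untreated array, and 15 and 21 without untreated F1 replicates 2 and 4. F1 skin at 72 h against its own untreated skin called 374 genes (1.99%), 38 higher (0.202%) and 336 lower (1.79%). Leading FVB rises were among them: Stfa3 by 3.22 (adjusted p = 0.0214), Il1f6 by 2.50 (adjusted p = 0.0116) and 2610528A11Rik by 3.44 (adjusted p = 0.00404). Without F1 72 h replicate 2, 0 genes were called in F1 (242 at an unadjusted p under 0.05).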

How the data were processed

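The deposited series table holds log2 expression values, which per the submitters' processing notes were made with RMA, a method that corrects background, normalizes arrays and summarises the probes of a set; its version, the genome build and any handling of array batches were not given in the sources used here. That table has 35556 probe sets and 69 arrays with values of 0.206 to 14.839. Of the probe sets, 21218 carried 1 gene symbol, 1881 several and 12457 none, and 21185 gene IDs matched the reference table; the brightest probe set stood for each of 18820 genes. Arrays give no read depth, and their number limits the precision.

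The 66 arrays with a labelled group entered 1 limma fit (limma 3.58.1, R 4.3.3) of group means with a term for the array batch named in the labels, with moderated errors and Benjamini-Hochberg adjustment over all 18820 genes; all FVB arrays lay in 1 batch. The other 3 arrays were not used. A call was an adjusted p under 0.05 with a log2 change of at least 1. Tested on simulated data for 72 h against untreated with 18820 genes, the fit recovered 79 of 100 genes changed by 1.5 and 100 of 100 changed by 3 on the log2 scale, with 11 false calls. The simulated noise was independent, with the same spread in every array for a given gene. It held no differences between arrays in tissue or range like those described above, so these rates may not hold for the real arrays.

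Genes named were the 15 largest called rises and falls with ordinary symbols and groups that did not overlap, up to 6 members with the largest change in each of 33 lists and any called member, the largest differences of the other contrasts, and 10 calls that moved least with an array left out; others are marked as chosen after their values were seen. The members and the lists were chosen with earlier results of these data known. Alternatives were other moderation, scaling, loess, filter, probe set, fold, array and block choices, and each array left out.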

Additional observations from a re-analysis of the deposited data

Results flagged for a closer look

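In all, 19 genes called in FVB also had a 72 h response that differed between F1 and FVB skin by the test of the difference itself. The 9 of them named in this report are given here (limma interaction, adjusted p 0.00618 to 0.0473). The F1 change minus the FVB change was 3.08 for 2310057N15Rik (0.70 in F1, -2.38 in FVB), 2.18 for Krtap13 (0.08, -2.10), 2.34 for Stat4 (0.74, -1.60), 1.66 for Grid1 (0.44, -1.22) and 1.51 for Pld5 (0.30, -1.21), all falls in FVB. It was -3.15 for Snord118 (-0.79 in F1, 2.36 in FVB), -2.15 for Snord33 (-0.55, 1.60), -1.91 for Snord35a (-0.34, 1.57) and -1.25 for Znfx1 (0.24, 1.49), all rises in FVB. Without F1 72 h replicate 2, the array of narrow range, each of the 9 lost its call, and 1 F1 array then stands for its group. The differences were then 2.06 for Krtap13, 1.62 for Grid1 and -1.21 for Znfx1. The largest moves were those of 2310057N15Rik (2.60) and Stat4 (1.89). For all 9 the FVB change, which does not use that F1 array, was larger in size than the F1 change. The 9 were also chosen as called in FVB. Their kept signs and sizes were thus in large part fixed in advance and lend the differences no weight. Without F1 72 h replicate 1, all 9 were called (adjusted p 0.000146 to 0.0109). In untreated F1 skin, 1 of 4 arrays stood apart from the others for Grid1, at 4.02, and for Krtap13, at 3.75. Of 12 genes looked at in this way, chance flags about 1 in 20. For Krtap13 all 4 untreated F1 arrays lay below every untreated FVB array, and the part of that in its difference was not tested.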

How the results depend on the processing

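The count at 72 h against untreated (353) was 622 with no fold threshold, 604 after cyclic loess, 634 without the 2 arrays of narrow range, 232 with the 6 arrays alone, 11 without untreated replicates 2 and 3, and 88 to 505 with 1 array left out. It was 310 to 411 under the other alternatives run. Against 48 h (135) it was 209 with no fold threshold, 409 after loess, 464 without the narrow arrays, 315 with FVB arrays alone and 11 to 820 with 1 array left out. Against 168 h (1) it was 28 after loess, 45 without the narrow arrays, 5 with FVB arrays alone and 0 to 147 with 1 array left out. The F1 minus FVB count (68) was 29 after centring, 308 after loess, 0 without untreated FVB replicates 2 and 3 (1625 at an unadjusted p under 0.05 in limma) and 0 to 2556 with 1 array left out. Centring gave 76.0% higher calls against 50.1% as deposited, with a median change over all genes of 0.0932 against -0.033.

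Signs turned for 4 named genes that were not called. Krt6b (-0.05) was 0.08 after centring, 0.05 after loess and -0.84 to 0.63 with 1 array left out. Lep (1.31) was -0.11 to 2.13 with 1 array left out. Cd8a and Cd8b1, both below 0 with all arrays, were 0.08 and 0.05 without untreated replicates 2 and 3. Of 141 named genes, 88 lost their calls without those 2 controls, 46 without untreated replicate 2, 39 without untreated replicate 3, 37 without 72 h replicate 1 and 35 without 72 h replicate 3. The 141 include genes not called with all arrays, which could not lose a call, so these losses fell on fewer than 141 genes. The cause of the losses and sign changes was not tested, apart from the loss of arrays itself.

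The shared replicate numbers were not taken to pair the arrays. Same-numbered 72 h and untreated arrays deviated together with correlations of 0.2, 0.108 and 0.093. Correlations of unlike-numbered arrays ran from -0.182 to 0.112. These few values do not decide whether the arrays were paired. With the replicate block, the counts were 329 against untreated, 123 against 48 h and 1 against 168 h.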
